A study of Mus musculus with 24 samples.

Results

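The genes described here are 10 imprinted genes with roles in growth: Mest, H19, Dlk1, Meg3, Rian, Mirg, Plagl1, Cdkn1c, Peg3 and Grb10. They were chosen by name from the 24043 gene symbols of the deposited expression table, and the set was selected on the level of Mest, which was about 180-fold lower under hypoxia than under normoxia in growth medium. All 10 have a row in the table, 8 were above 0 in at least 1 library, and 5 (Mest, H19, Cdkn1c, Peg3 and Plagl1) averaged 1 FPKM or more in some group, the level required for testing. FPKM scales fragments to transcript length and to the mapped fragments of the library, so levels are per length and can be set side by side between genes.

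The study used C2C12, an established mouse myoblast line, so that every library comes from one line and differences between animals are not sampled. Cells were kept in growth medium with 10% fetal bovine serum, where they proliferate, or in differentiation medium. The latter held 2% horse serum and an insulin, transferrin and selenium supplement, and is used to make such cells fuse into myotubes. Each medium was used at 21% oxygen (normoxia) and at 2% oxygen (hypoxia), and the labels name no genetic change in any group. Each of the 4 groups has 2 RNA-seq libraries, lettered A and B and called biological replicates in the series' design text. Whether A and B were separate cultures is not stated further, so the p-values measure the spread between these libraries. Of the 24 samples, the 16 chromatin immunoprecipitation and input samples were not analysed here.

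Imprinted genes are expressed mainly from the copy inherited from one parent. DNA methylation laid down in the germ line marks a control region on the maternal or the paternal copy, not on both. Mest, Peg3, Plagl1 and Dlk1 are expressed from the paternal copy, and H19, Meg3, Rian, Mirg and Cdkn1c from the maternal copy, while the expressed copy of Grb10 depends on the tissue. Many of these genes are high in embryonic tissues, skeletal muscle among them, and fall after birth. FPKM values per gene do not separate the parental copies, and DNA methylation was not measured.

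The promoter sequences of 3 members are shown with their CpG pairs, the sites at which DNA methylation marks imprinted copies. The windows shown hold 7 to 19 such pairs, against a median of 6 over all promoter windows of this length. Each run is the 250 bases before a RefSeq transcription start in GRCm38.p6, on the strand of the gene, 5′ to 3′, with CpG pairs in capitals. Mest has a window at chr6:30733256-30733505 on the plus strand and a second at chr6:30737800-30738049 on the plus strand, Plagl1 at chr10:13090582-13090831 on the plus strand, and Peg3 at chr7:6730420-6730669 on the minus strand.
Mest, first window: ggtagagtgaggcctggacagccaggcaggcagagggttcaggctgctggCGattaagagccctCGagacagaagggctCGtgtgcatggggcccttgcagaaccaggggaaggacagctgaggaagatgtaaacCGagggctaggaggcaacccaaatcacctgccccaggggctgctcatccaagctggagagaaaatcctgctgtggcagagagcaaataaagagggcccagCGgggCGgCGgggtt
Mest, second window: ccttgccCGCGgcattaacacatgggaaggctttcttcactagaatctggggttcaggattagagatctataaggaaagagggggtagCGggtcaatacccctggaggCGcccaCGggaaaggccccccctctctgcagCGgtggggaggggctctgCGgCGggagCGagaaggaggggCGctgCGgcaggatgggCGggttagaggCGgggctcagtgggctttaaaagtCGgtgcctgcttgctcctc
Plagl1: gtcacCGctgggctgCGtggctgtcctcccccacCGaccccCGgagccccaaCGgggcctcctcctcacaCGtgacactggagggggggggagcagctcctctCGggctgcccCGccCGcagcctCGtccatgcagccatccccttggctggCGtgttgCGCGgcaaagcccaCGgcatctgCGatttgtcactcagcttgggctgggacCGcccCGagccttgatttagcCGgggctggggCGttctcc
Peg3: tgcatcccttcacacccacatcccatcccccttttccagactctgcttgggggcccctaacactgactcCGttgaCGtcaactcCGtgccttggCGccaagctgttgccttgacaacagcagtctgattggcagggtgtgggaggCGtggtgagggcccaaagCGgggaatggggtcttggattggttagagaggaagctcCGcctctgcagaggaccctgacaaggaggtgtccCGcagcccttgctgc

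The first Mest window holds 7 CpG pairs and the second 14, and 29.4% of the 32851 promoter windows of this length hold at least as many as the second. Plagl1 has 19 CpG pairs (19.7% of windows hold as many) and Peg3 has 8 (43%). Among the members with a RefSeq window, Grb10 has the most, 40 in its first window, a number reached by 1.31% of windows. Its RNA reached at most 1.01 FPKM, and a relation of CpG number to RNA level was not tested. On both strands, ACGTG and GCGTG, the letters of the hypoxia response element, had no match in either Mest window, 1 in Peg3 and 4 in Plagl1, and 38.6% of all windows hold at least 1. A palindrome such as CACGTG counts once on each strand and overlaps the E-box CANNTG, bound by myogenic bHLH factors, which had 2 matches and 1 match in the Mest windows, 2 in Plagl1 and none in Peg3, against 66.2% of windows with at least 1. These counts describe letters in these windows only.

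Library sums ran from 480018 to 534167 FPKM, with 14917 to 15672 genes above 0, and the number of fragments behind a value is not known. The 6 myotube markers summed to 7628 and 7646 FPKM in the normoxic differentiation libraries and to 17.4 and 9.72 FPKM in the hypoxic ones, against 25.2 to 32.9 FPKM in normoxic and 3.44 to 3.80 FPKM in hypoxic growth medium. The sums in hypoxic differentiation medium were thus below those in normoxic growth medium. Differentiation at 2% oxygen therefore names a change of medium below, not the formation of myotubes. The hypoxic differentiation libraries A and B stood apart from each other: 613 genes differed more than 2-fold between them, compared with 56 to 71 in the other groups, and the 10 cycling-cell markers summed to 127.1 FPKM in A and 372.4 FPKM in B. All 6 myoblast markers were detected and summed to 85.1 to 969.5 FPKM over the 8 libraries. In growth medium the sums were 543.5 and 463.3 FPKM under normoxia and 126.6 and 131 FPKM under hypoxia. In differentiation medium they were 969.5 and 960.1 FPKM under normoxia and 85.1 and 125.1 FPKM under hypoxia. Each of the 6 had hypoxic libraries below both normoxic ones in growth medium, as did 50% of all genes, given without a test. Endothelial markers summed to at most 0.52 FPKM, adipocyte markers to at most 0.133 FPKM (3 of 4 at 0 in all libraries), neural and glial markers to at most 1.71 FPKM and epithelial markers to at most 3.62 FPKM. Of the 4 leukocyte markers, summing to 1.84 to 42.9 FPKM, Cd68 reached 25.8 and 42.8 FPKM in hypoxic differentiation medium and at most 3.57 FPKM elsewhere, while Ptprc stayed at or under 0.0137 FPKM. The part of these differences in the results below was not tested, and in bulk RNA fewer cells of a type cannot be told apart from less RNA per cell.

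Mest encodes a protein of the alpha/beta-hydrolase fold and was the gene on which the set was selected. It measured 212.5 and 204.2 FPKM in normoxic growth medium (replicates A and B) with 1.19 and 1.11 FPKM under hypoxia. Replicates lay close together, and the means of 208 ± 5.87 and 1.15 ± 0.0578 FPKM (SD, n = 2 each) were 181.5-fold apart, the difference that chose the gene and therefore given without a test. On the log2(FPKM + 1) scale used for all log2 values here, which understates changes of low genes, the difference was −6.61, the third most negative among 12389 genes.

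In differentiation medium Mest measured 13.4 and 14.5 FPKM at 21% oxygen and 7.10 and 5.55 FPKM at 2% oxygen. Both hypoxic libraries lay below both normoxic ones, and the mean of 6.33 ± 1.09 FPKM was 2.21-fold lower than that of 14.0 ± 0.794 FPKM (SD, n = 2 each). This contrast compares no library of the one that chose the gene, and the fall of 1.04 on the log2 scale (SE 0.118) had a limma adjusted p of 0.000295. That SE rests on the spread within all 4 groups, the growth medium libraries included. Fitting only the libraries compared gave the same fall with SE 0.146 and a limma adjusted p of 0.00754. Without hypoxic differentiation replicate A the log2 change was −1.19, and without replicate B −0.89, both past the threshold of 0.05.

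Ordered by level, Mest was highest in normoxic growth medium, then in normoxic differentiation medium, hypoxic differentiation medium and hypoxic growth medium, and no neighbouring groups in that order overlapped. Its mean was 14.9-fold lower in differentiation than in growth medium at 21% oxygen (log2 difference −3.81) and 5.51-fold higher at 2% oxygen (log2 difference 1.76). Both values use growth medium libraries that chose the gene, so neither they nor the difference between them was tested. Mir335, the microRNA encoded in an intron of Mest, was listed at 0 in all 8 libraries.

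**Figure D1:**
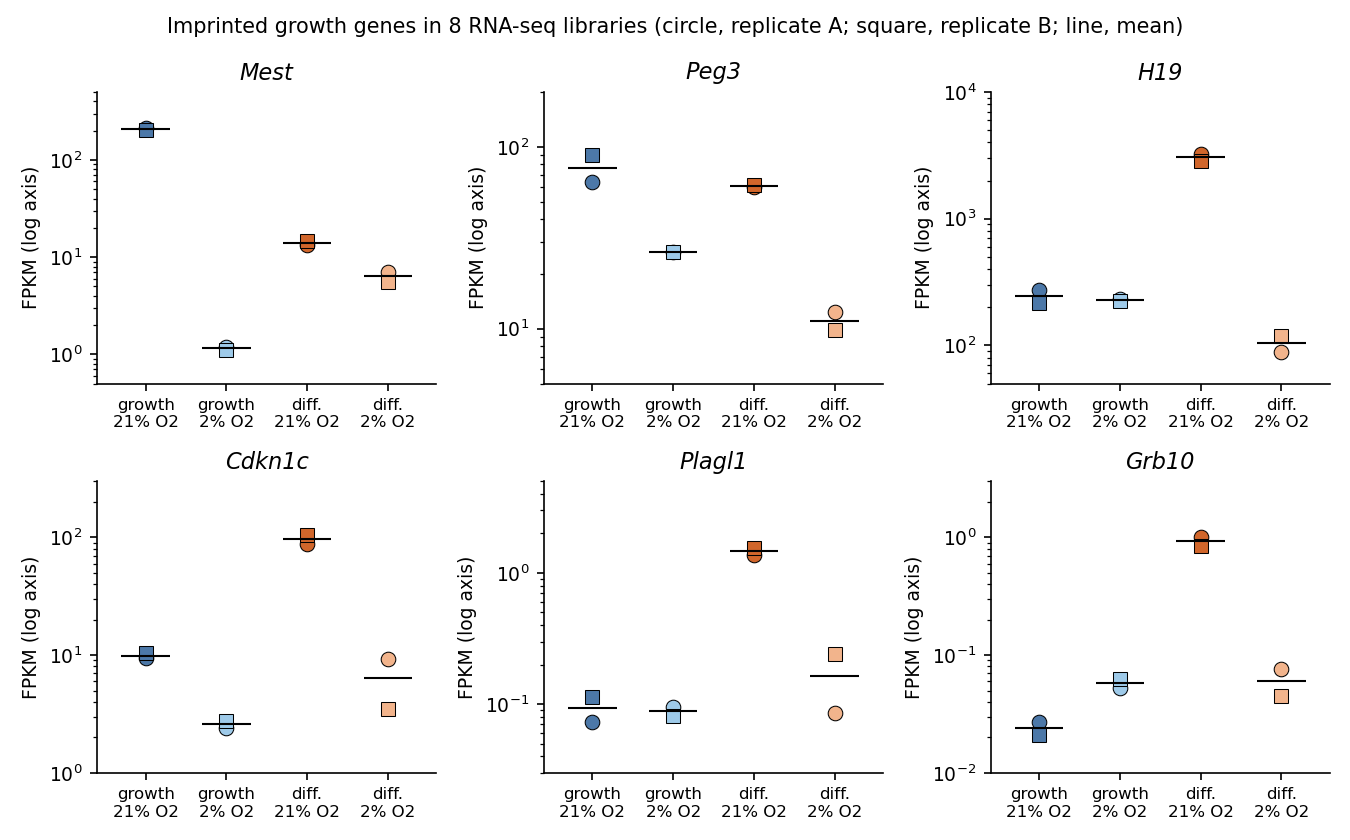
FPKM on log axes for the 6 members above 0 in all 8 libraries (each panel has its own axis range); circles are replicate A, squares replicate B and lines the mean of 2 libraries. Mest was highest in normoxic growth medium (204.2 and 212.5 FPKM), whereas H19, Cdkn1c, Plagl1 and Grb10 were highest in normoxic differentiation medium.

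The other paternally expressed gene at a high level was Peg3, a zinc finger protein that takes part in growth control and muscle stem cell biology. It measured 63.9 and 89.7 FPKM in normoxic growth medium, 26.4 and 26.6 FPKM in growth medium under hypoxia, 60.3 and 61.3 FPKM in normoxic differentiation medium, and 12.3 and 9.81 FPKM in hypoxic differentiation medium. Hypoxic libraries were below normoxic ones in both media. In growth medium the means of 76.8 ± 18.3 and 26.5 ± 0.108 FPKM (SD, n = 2 each) were 2.90-fold apart, a description because that contrast chose the set.

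In differentiation medium Peg3 was 5.50-fold lower at 2% oxygen (log2 change −2.37 ± 0.169 SE, limma adjusted p = 3.58e-05), with means of 60.8 ± 0.701 and 11.1 ± 1.75 FPKM. The change was −2.52 without hypoxic replicate A and −2.22 without replicate B. Between media at 21% oxygen the log2 change was −0.31 ± 0.169 SE (adjusted p = 0.145). Both growth values exceeded both differentiation values there, but growth replicate A (63.9 FPKM) lay close to them, and without that replicate the change was −0.55 (adjusted p = 0.0183). At 2% oxygen Peg3 was 2.40-fold lower in differentiation than in growth medium (log2 change −1.20 ± 0.169 SE, limma adjusted p = 0.00243), with −1.35 and −1.05 when hypoxic differentiation A or B was left out.

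Plagl1, a zinc finger transcription factor that restrains proliferation, was near the lower limit of the table. Its levels were 0.0736 and 0.114 FPKM in normoxic growth medium, 0.0956 and 0.0810 FPKM in growth medium under hypoxia, 1.37 and 1.56 FPKM in normoxic differentiation medium, and 0.0851 and 0.242 FPKM in hypoxic differentiation medium. The normoxic differentiation libraries alone were above 1 FPKM and the other 3 groups overlapped. Plagl1 reached the level required for testing only through that one group and so had to differ from the rest, and no test is read from the contrasts that contain it. Its log2 change was 1.17 for differentiation at 21% oxygen and −1.09 for hypoxia in differentiation medium, and these sizes depend on the pseudocount, with 3.02 and −2.63 when 0.1 FPKM was added in place of 1. The hypoxic value was −0.99 without hypoxic differentiation replicate A and −1.18 without B. For differentiation at 2% oxygen the log2 change was 0.09 ± 0.0989 SE (adjusted p = 0.491).

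Among the maternally expressed genes, H19 gave the highest level of all members. This noncoding RNA of the Igf2 domain, which also carries Mir675, is abundant in fetal and regenerating muscle. It measured 273.6 and 217.1 FPKM in normoxic growth medium, 232.8 and 225.8 FPKM in growth medium under hypoxia, 3250 and 2875 FPKM in normoxic differentiation medium, and 89.5 and 119 FPKM in hypoxic differentiation medium.

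The growth medium groups overlapped at 245 ± 39.96 and 229 ± 5.01 FPKM (SD, n = 2 each), with a log2 difference of −0.09 that became 0.03 with median-of-ratios scaling and 0.08 with upper-quartile scaling. H19 rose 12.5-fold with differentiation at 21% oxygen (log2 change 3.64 ± 0.168 SE, limma adjusted p = 5.91e-06), to 3063 ± 265 FPKM. In differentiation medium it was 29.4-fold lower at 2% oxygen, at 104 ± 21.1 FPKM (log2 change −4.87 ± 0.168 SE, adjusted p = 1.57e-06). At 2% oxygen it was 2.198-fold lower in differentiation than in growth medium (log2 change −1.14 ± 0.168 SE, limma adjusted p = 0.00285). Without hypoxic differentiation replicate A these last 2 changes were −4.67 and −0.94, and without B −5.08 and −1.35. The change between media thus had opposite signs at the 2 oxygen levels, a difference that was not tested because it contains the growth medium oxygen contrast. Mir675 was listed at 0.00291 FPKM or less in every library.

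Cdkn1c encodes a cyclin-dependent kinase inhibitor that accompanies cell cycle exit of myoblasts. Its values were 9.45 and 10.4 FPKM in normoxic growth medium, 2.42 and 2.75 FPKM in growth medium under hypoxia, 88.0 and 105.5 FPKM in normoxic differentiation medium, and 9.18 and 3.48 FPKM in hypoxic differentiation medium. Normoxic differentiation libraries were far above all others, and the hypoxic differentiation pair differed between replicates, with the lower value in B, the library with the higher cycling-marker sum (372.4 against 127.1 FPKM). The part of that difference was not tested.

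Cdkn1c rose 9.75-fold with differentiation at 21% oxygen (log2 change 3.16 ± 0.346 SE, limma adjusted p = 0.000248). In differentiation medium it was 15.3-fold lower at 2% oxygen, with means of 96.7 ± 12.3 and 6.33 ± 4.03 FPKM (log2 change −3.85 ± 0.346 SE, adjusted p = 0.000102), and the change was −4.44 without hypoxic replicate A and −3.26 without B. At 2% oxygen the difference between media was 0.92 ± 0.346 SE on the log2 scale and did not pass (limma adjusted p = 0.0749). That value rested on 1 library: it was 0.32 (adjusted p = 0.0956) without hypoxic differentiation replicate A and 1.51 (adjusted p = 0.000612) without replicate B. In growth medium the means of 9.92 ± 0.657 and 2.58 ± 0.229 FPKM were 3.84-fold apart between normoxia and hypoxia, given as a description.

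Grb10, an adaptor that dampens insulin and insulin-like growth factor receptor signalling, measured 0.0272 and 0.0210 FPKM in normoxic growth medium, 0.0530 and 0.0629 FPKM in growth medium under hypoxia, 1.01 and 0.849 FPKM in normoxic differentiation medium, and 0.0755 and 0.0448 FPKM in hypoxic differentiation medium. Its highest group mean of 0.929 FPKM missed the level required for testing. In a fit without that requirement the log2 change was 0.91 ± 0.0435 SE for differentiation at 21% oxygen (limma adjusted p = 3.05e-05) and −0.86 ± 0.0435 SE for hypoxia in differentiation medium (adjusted p = 3.36e-05). As with Plagl1, both normoxic differentiation libraries were above all 6 others.

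The 4 members of the Dlk1 to Meg3 domain on chromosome 12 gave almost no signal. Dlk1, a transmembrane protein of the Delta-like family known from myoblasts and preadipocytes, and Meg3, a long noncoding RNA, were listed at 0 in all 8 libraries. Rian, a host of small nucleolar RNAs, was above 0 in 1 library (0.0152 FPKM, hypoxic growth medium B). Mirg, a microRNA host, was above 0 in 2 libraries (0.0876 FPKM in normoxic growth medium B and 0.0623 FPKM in hypoxic differentiation medium B). The microRNA genes of this domain that were looked up were also listed at 0, as was Rtl1, while Dio3 reached at most 0.041 FPKM and Begain 0.361 to 0.642 FPKM. Of 17 small RNA genes looked up over all member loci, 16 were at 0 throughout. Mir335 was among them, and Mir675 stayed at 0.00291 FPKM or less, although Mest and H19 reached 212.5 and 3250 FPKM. A 0 in these rows is therefore not read as absence of a microRNA. The 6 nearest tested genes around the domain were detected, among them Wars, a tryptophanyl-tRNA synthetase at 142 and 151 FPKM in normoxic differentiation medium and 15.0 to 37.1 FPKM in the other libraries.

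Counted without Plagl1, whose direction the filter fixed, 4 of 4 tested members (Mest, H19, Cdkn1c and Peg3) fell with hypoxia in differentiation medium and none rose. Of all 12389 genes 27.7% were called lower and 37.5% higher. Without every gene over the testing level in 1 compared group alone, as Plagl1 was, 11778 genes were left, 25.4% lower and 38.6% higher. The median log2 change of the 4 members was −3.11, against 0.15 over all genes and 0.18 over those left. For differentiation at 21% oxygen, again without Plagl1, 2 of 3 tested members (H19 and Cdkn1c) rose and none fell, with 25.5% of genes called higher and 41% lower, and the medians were 3.16 and −0.20. Of the 11751 genes left there by the same removal, 23.2% were higher and 42% lower, with a median of −0.225. For differentiation at 2% oxygen 2 of 4 (H19 and Peg3, Plagl1 included among the 4) fell and none rose, with 17.6% of genes called lower and 23.3% higher, and the medians were −0.53 and 0.07 (0.065 before rounding). The 3 contrasts share libraries with one another, so they are not independent looks at the members.

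In growth medium, where the contrast chose the set, 3 of 5 members (Mest, Cdkn1c and Peg3) had hypoxic libraries below both normoxic ones, a pattern shown by 50% of all genes. The scale between libraries moved the balance of calls over all genes. With median-of-ratios scaling 46.5% instead of 57.5% of the genes called for hypoxia in differentiation medium were higher, and 53.6% instead of 38.4% of those called for differentiation at 21% oxygen, while the median of all genes moved from 0.15 to −0.03 and from −0.20 to 0.03. Every member called in these contrasts kept its direction and call under that scaling.

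**Figure D2:**
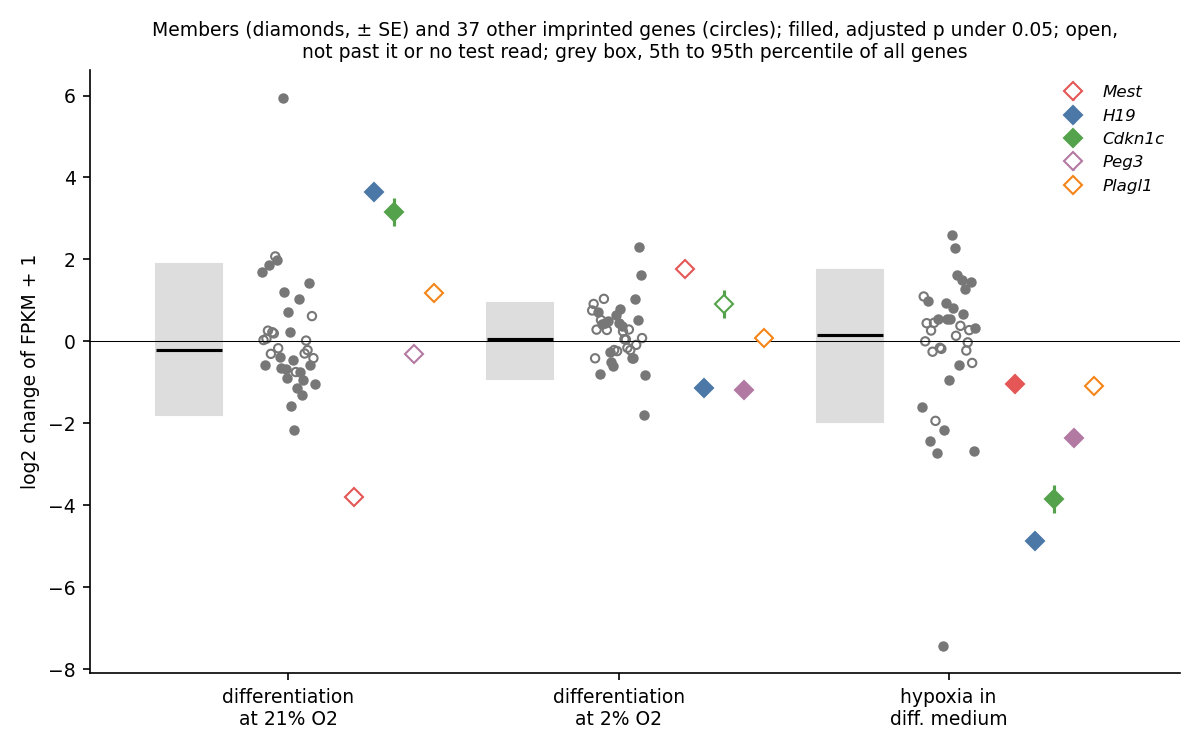
Change on the log2(FPKM + 1) scale for 5 members (diamonds with SE) and 37 other imprinted genes (circles) in the 3 contrasts; filled symbols had an adjusted p under 0.05, open ones did not or had no test read (Mest for differentiation, and genes over the testing level in 1 compared group alone), and the grey box spans the 5th to 95th percentile of all 12389 genes with the median as a line. For hypoxia in differentiation medium Mest (−1.04), Peg3, Cdkn1c and H19 (−4.87) lie below 0, while the other imprinted genes lie on both sides. Plagl1 also lies below 0, but the filter fixed its direction.

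A wider list of 68 genes with reported imprinting in mouse had 65 in the table and 37 tested. For hypoxia in differentiation medium 15 rose, 9 fell and 13 did not pass, with a median log2 change of 0.27. These counts, beside 37.5% and 27.7% of all genes, include Ascl2 and Ddc, over the testing level in 1 compared group alone. Without them 14 of 35 (40%) rose and 8 (22.9%) fell, near the 38.6% and 25.4% of all genes left by the same removal. For differentiation at 21% oxygen 10 rose, 15 fell and 12 did not pass (median −0.22), beside 25.5% and 41% of all genes. Without Ddc and Peg12, left out for the same reason, 9 of 35 (25.7%) rose and 14 (40%) fell, near the 23.2% and 42% of all genes left. For differentiation at 2% oxygen 13 rose, 8 fell and 16 did not pass (median 0.28), beside 23.3% and 17.6% of all genes. Without Ascl2 the counts were 12 (33.3%) and 8 (22.2%) of 36, beside 23.2% and 17.4% of all genes left. None of these counts is read as a result about the list.

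Among the genes of this list that averaged 10 FPKM or more in some group, those with the greatest changes included a growth factor and a metabolic enzyme. Igf2, the insulin-like growth factor that neighbours H19 and drives myoblast differentiation in an autocrine way, measured 3.82 and 3.02 FPKM in normoxic growth medium, 1.36 and 1.43 FPKM in growth medium under hypoxia, 272.5 and 269.4 FPKM in normoxic differentiation medium, and 0.531 and 0.624 FPKM in hypoxic differentiation medium. It rose 79.2-fold with differentiation at 21% oxygen (log2 change 5.95 ± 0.114 SE, limma adjusted p = 2.11e-07). In differentiation medium it was 469-fold lower at 2% oxygen (log2 change −7.43 ± 0.114 SE, adjusted p = 1.4e-07), with a smaller fall with differentiation at 2% oxygen (log2 change −0.60, adjusted p = 0.00736, and 0.0535 without hypoxic growth replicate B).

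Other falls with hypoxia in differentiation medium were those of Gatm, an enzyme of creatine synthesis (67.0 to 9.82 FPKM, log2 change −2.72, limma adjusted p = 0.000123), Zim1, a zinc finger gene beside Peg3 (13.8 to 1.30 FPKM, adjusted p = 6.03e-05), and Cobl, an actin nucleator beside Grb10 (log2 change −2.44, adjusted p = 3.19e-06). Rises were seen for Ndn, a MAGE family protein (0.911 to 10.6 FPKM, log2 change 2.60, limma adjusted p = 3.48e-06), and Peg10, a retrotransposon-derived gene (1.502 to 11.2 FPKM, log2 change 2.27, adjusted p = 5.3e-05). With differentiation at 21% oxygen Gatm (1.99) and Cobl (1.86) rose on the log2 scale, and Peg10 (−2.17), Ndn (−1.58) and Sgce, a sarcoglycan (−1.31), fell, with adjusted p from 1.17e-05 to 0.000521. With differentiation at 2% oxygen Tssc4 (1.62, 11.6 to 37.7 FPKM), Nap1l4 (0.80), Cd81 (0.71) and Impact (0.64) rose, and Zim1 (−1.79) and Cobl (−0.81) fell, with adjusted p from 0.00027 to 0.00714.

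Genes next to the members in the RefSeq order of GRCm38.p6 did not all move with them. For Mest, 3 of its 5 nearest neighbours with a test fell with hypoxia in differentiation medium and none rose. Without genes over the testing level in 1 compared group alone, 25.4% of all genes fell and 38.6% rose. The 3 were Klhdc10 (log2 change −0.87, limma adjusted p = 0.000138), Mkln1 (−0.73, adjusted p = 0.000896) and Tmem209 (adjusted p = 0.0446). The sixth, Mkln1os (−0.72), was over the testing level in normoxic differentiation medium alone, so its direction was fixed. The call of Tmem209 was lost in 7 of the 8 fits that left out 1 library, with log2 changes from −0.56 to −0.21. Cep41, a centrosomal protein gene (−0.03, adjusted p = 0.857), and Copg2, a coatomer subunit gene next to Mest (−0.25, adjusted p = 0.134), did not pass, although Copg2 did without hypoxic differentiation replicate A (adjusted p = 0.00823). Mkln1 and Mkln1os are antisense to each other, and transcripts of Mest and Copg2 can overlap from opposite strands. Reads from such overlaps cannot be told apart, because use of strand in counting is not given in the sources used here.

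In growth medium the neighbours are described without a test. Klhdc10 measured 21.3 and 23.0 FPKM at 21% and 7.09 and 7.05 FPKM at 2% oxygen, and Cep41 7.17 and 7.18 against 2.15 and 2.76 FPKM. Copg2 measured 16.7 and 17.4 FPKM in normoxia and 11.7 and 12.8 FPKM in hypoxia, and Mkln1 9.84 and 11.4 against 11.3 and 10.8 FPKM. The log2 differences of the 6 neighbours lay between −1.52 and 0.06, compared with −6.61 for Mest.

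Around H19, 2 of the 4 neighbours with a test fell with hypoxia in differentiation medium and none rose, beside 25.4% and 38.6% of all genes left by the same removal. The 2 were Igf2 (log2 change −7.43) and Tnnt3 (−9.21), larger changes than those of the Mest neighbours. Mrpl23 and Tspan32 (0.27, limma adjusted p = 0.305) did not pass. Nctc1, a noncoding RNA transcribed near the muscle enhancer of the Igf2 and H19 domain, was listed at 0 in 6 libraries and measured 2.42 and 2.65 FPKM in the normoxic differentiation libraries alone, so that it was over the testing level only there and its direction was fixed. Tnnt3, the fast skeletal troponin T gene and also a myotube marker, measured 1579 and 1568 FPKM there and 3.62 FPKM or less elsewhere. Mrpl23, a mitochondrial ribosomal protein gene that lies between them in this order, passed in none of the 3 contrasts. On the other side of Igf2, Ascl2 measured at most 0.0449 FPKM in normoxic and 1.26 and 1.11 FPKM in hypoxic differentiation medium, the one group in which it was over the testing level.

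Around Cdkn1c, 5 of the 6 neighbours rose with hypoxia in differentiation medium, opposite to Cdkn1c, and none fell, where 37.5% of all genes were called higher. Tssc4 changed by 1.46 on the log2 scale (limma adjusted p = 3.84e-05), Cd81, a tetraspanin, by 1.00 (adjusted p = 0.000438) and Slc22a18, an organic cation transporter, by 0.66 (adjusted p = 0.00337). Next to Peg3, Zim1 measured 14.3 and 13.3 FPKM at 21% and 1.49 and 1.12 FPKM at 2% oxygen in differentiation medium, and 2 of the other 5 neighbours rose (Zfp954, whose adjusted p was 0.0602 without normoxic differentiation replicate A, and Zfp772). Around Grb10, 3 of 5 neighbours with a test rose with hypoxia in differentiation medium, 1 fell (Cobl) and 1 did not pass (Egfr). The 3 were Upp1 (log2 change 1.20, limma adjusted p = 0.000407), Sec61g (0.85, adjusted p = 0.00308) and Fignl1 (1.19, adjusted p = 0.0446). The call of Fignl1 was lost in 6 of the 8 fits that left out 1 library. Ddc, the aromatic amino acid decarboxylase and also next to Grb10, measured 6.02 and 4.94 FPKM in normoxic differentiation medium and 0.117 to 0.700 FPKM in the other libraries. It too was over the testing level in that group alone. Without the 4 neighbours of this kind (Nctc1, Ascl2, Mkln1os and Ddc), 15 of 38 distinct neighbours (39.5%) rose and 12 (31.6%) fell with hypoxia in differentiation medium. These lie beside 38.6% and 25.4% of all genes left by the same removal.

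**Figure D3:**
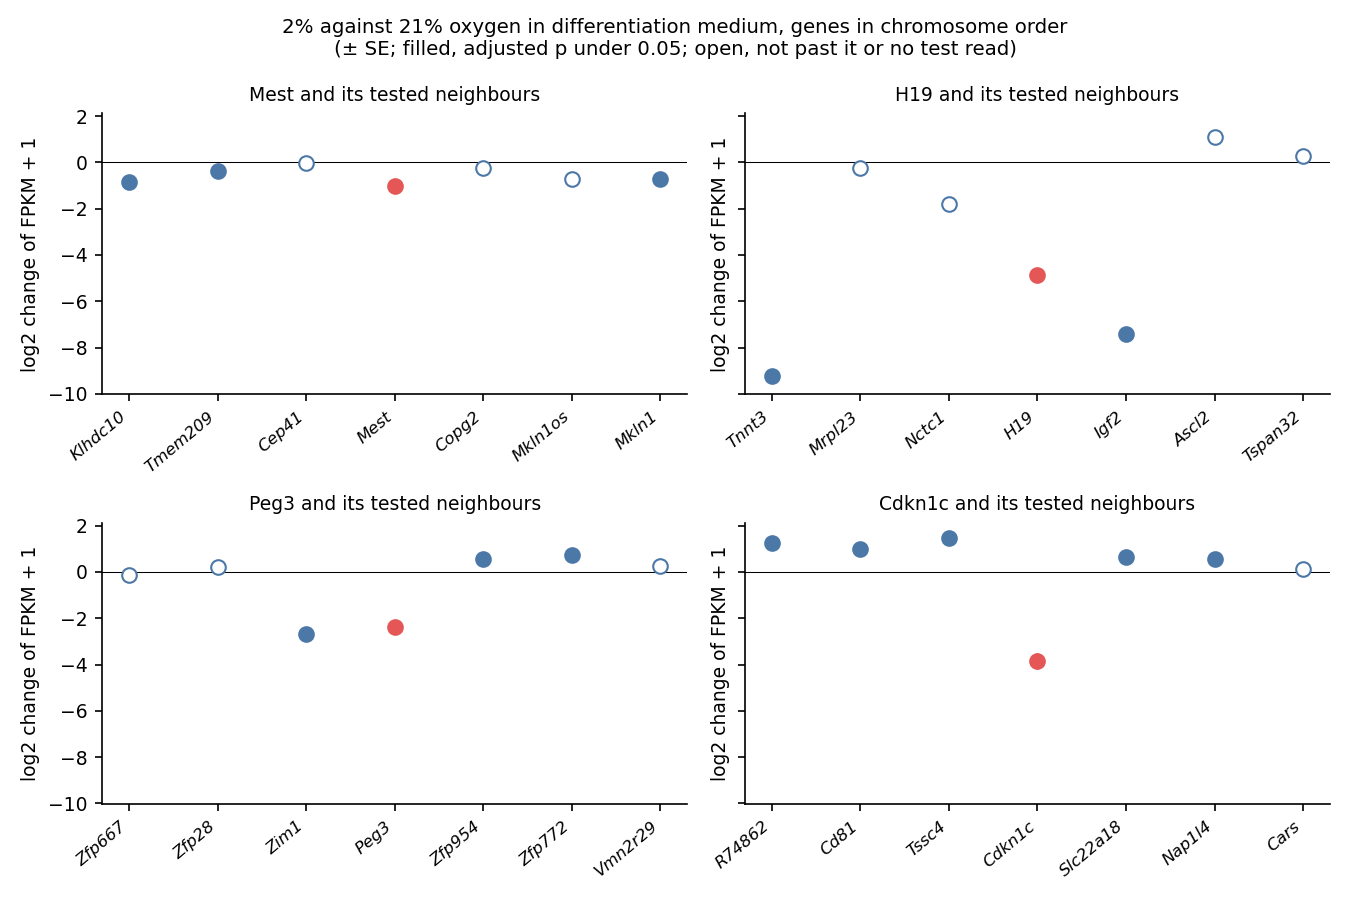
Log2 change with SE at 2% against 21% oxygen in differentiation medium for 4 members (red) and the 3 nearest tested genes on each side (blue), in chromosome order and not to distance; filled symbols had an adjusted p under 0.05, and open ones did not or had no test read. Cdkn1c (−3.85) lies below its 6 neighbours, all above 0, while H19 (−4.87) lies beside Igf2 (−7.43).

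Regulators of imprinted loci were measured as a list of 10 genes, all tested. With hypoxia in differentiation medium 5 rose, 3 fell and 2 did not pass, shares of 50% and 30% beside 37.5% and 27.7% of all genes, from which nothing is read about the list. Dnmt1, the maintenance DNA methyltransferase, rose by 1.57 on the log2 scale (limma adjusted p = 0.000126). Its partner Uhrf1 rose by 1.76 (adjusted p = 0.0425), from 3.01 and 3.19 FPKM to 5.37 and 29.1 FPKM in hypoxic differentiation A and B. Leaving out B lowered that change to 0.64, leaving out A raised it to 2.88, and the call was lost in the other 6 fits that left out 1 library (adjusted p up to 0.148). The calls of Yy1 (lost in 6 such fits) and Setdb1 (lost in 1, without normoxic differentiation replicate A) were also unsteady. Zfp57, the zinc finger protein that binds methylated control regions, fell by 1.17 (adjusted p = 0.00608), with 7.41 and 7.37 FPKM at 21% and 1.78 and 4.00 FPKM at 2% oxygen. That change was −0.75 without hypoxic differentiation replicate A and −1.60 without B. Dnmt1 and Uhrf1 are also cell cycle genes, and the cycling-marker sum was 89.7 and 93.2 FPKM in the normoxic and 127.1 and 372.4 FPKM in the hypoxic differentiation libraries, whose part in these changes was not tested.

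With differentiation at 21% oxygen 3 of the 10 rose (Cnbp, Kdm1b and Yy1), 4 fell (Dnmt1, Uhrf1, Trim28 and Setdb1) and 3 did not pass, beside 25.5% and 41% of all genes. At 2% oxygen 1 rose (Cnbp), 1 fell (Setdb1) and 8 did not pass, beside 23.3% and 17.6%. Single libraries decided part of these calls: at 2% oxygen that of Cnbp was lost without either hypoxic growth library and that of Setdb1 without hypoxic growth replicate A, and at 21% oxygen that of Uhrf1 in 4 and that of Yy1 in 3 of the 8 fits. In growth medium Zfp57 measured 13.03 and 11.4 FPKM at 21% oxygen and 3.77 and 3.87 FPKM at 2% oxygen. Hypoxic libraries below both normoxic ones were found there for 7 of the 10 and for 50% of all genes, so nothing is read from this.

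The genes whose pattern was most like that of Mest, by Pearson correlation of log2(FPKM + 1) over the 8 libraries among 7513 genes, were March8 (r = 0.983), Uimc1 (0.982), Lix1 (0.981), Ptcd2 (0.979) and C1qtnf6 (0.979). Their group means shared its order but not its size. Between the differentiation groups the log2 change with hypoxia was −0.031 for March8, whose libraries overlapped, −0.099 for Uimc1 and −0.161 for Ptcd2. It was −1.055 for Lix1 and −0.577 for C1qtnf6. The growth medium oxygen contrast that chose Mest is part of this measure. Lix1 had group means of 16.2 FPKM in normoxic growth, 0.927 in hypoxic growth, 4.64 in normoxic differentiation and 1.73 in hypoxic differentiation medium. C1qtnf6 had means of 46.5, 11.2, 19.2 and 12.5 FPKM in the same order, and March8, a ubiquitin ligase gene, ranged from 13.2 to 19.8 FPKM. For H19 the closest was Cacnb1, a subunit of the muscle calcium channel (r = 0.999), with 5.90, 5.46, 148 and 1.68 FPKM in the same order, followed by Dtx3l and Trim25 (0.995 each). The 8 libraries are 4 pairs of replicates, so these values describe group means more than independent points. Dlk1 and Meg3, being constant at 0, have no such measure.

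**Figure D4:**
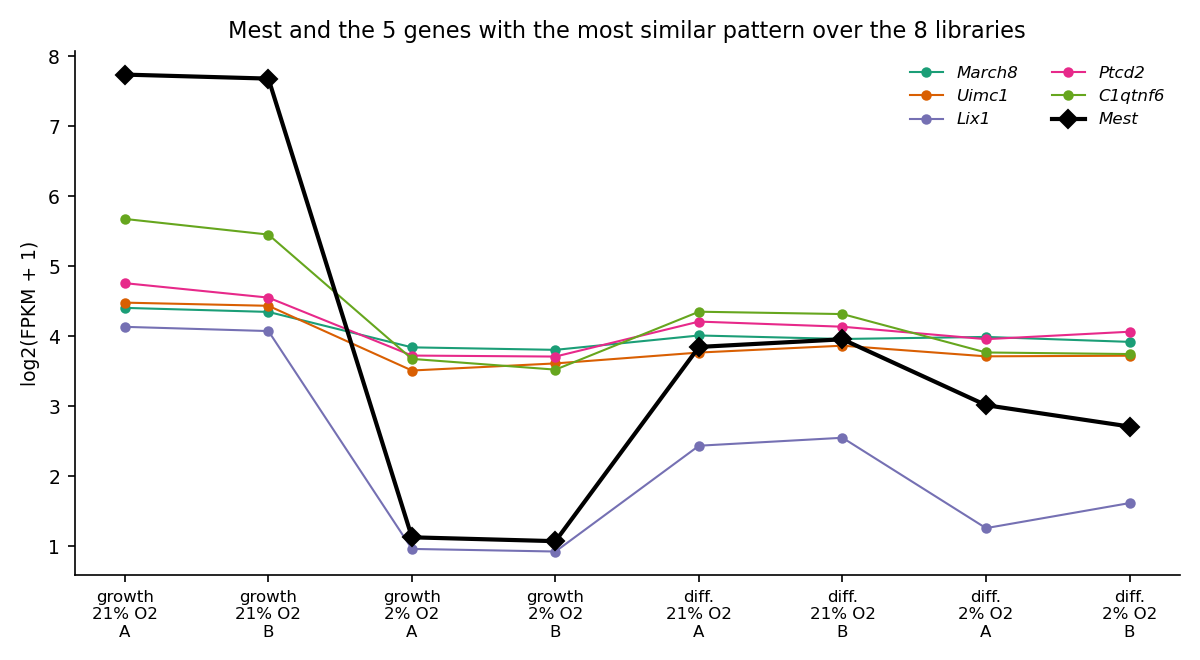
Level as log2(FPKM + 1) in each library for Mest (black diamonds) and the 5 genes with the highest correlation to it (coloured circles); lines join libraries for reading only. All 6 genes are highest in the 2 normoxic growth medium libraries, and Lix1 comes closest to the range of Mest, with group means from 0.927 to 16.2 FPKM.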

How the data were processed

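RNA-seq was measured in 8 libraries, 2 in each of 4 groups. Per the submitters' processing notes, the tools include STAR 2.5.1b and Cufflinks 2.2.1 and the genome build is mm9. The authors deposited 1 gene table whose values are FPKM by their behaviour, although its name speaks of counts. The annotation, the use of strand in counting, filters and any scaling between libraries are not given in the sources used here. Because values are not counts, no count test was run, absolute depth is unknown, and relative depth estimated from the smallest steps of low values ran from 0.633 to 1. Columns were matched to samples by medium, oxygen level and letter in the titles.

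Values were transformed as log2(FPKM + 1), and 12389 genes averaging 1 FPKM or more in some group were fitted with limma 3.58.1 (R 4.3.3), 4 group means and an intensity trend, with 4 residual degrees of freedom per gene. Tests were two-sided, p-values were adjusted by Benjamini-Hochberg over all genes of a contrast, and the threshold was 0.05. The code was tested on simulated data. The tested contrasts were hypoxia in differentiation medium, and differentiation at each oxygen level. The growth medium oxygen contrast chose the set and was not tested, nor was Mest in contrasts that share its libraries. The members and lists were chosen with earlier results of these data known.

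All 10 members are named. Of the other imprinted genes, up to 6 per contrast are named, those with the greatest change among called genes whose highest group averaged 10 FPKM or more and whose compared libraries did not overlap; Igf2, Ascl2, Slc22a18 and Ddc are also named as neighbours. The 3 nearest tested genes on each side of a member, small RNA genes left out, are its neighbours. The neighbours named beside members other than Mest, and the regulators named, were picked after their values were seen. The likeness list takes the 5 (Mest) or 3 (H19, Dlk1, Meg3) genes with the highest correlation among those averaging 10 FPKM or more in some group. Of 24043 symbols, 23815 matched a current or older symbol in the RefSeq table of GRCm38.p6, which gave names, neighbour order and the promoter windows. Alternatives changed the scaling, pseudocount, filter, libraries fitted, weights, moderation and replicate block, and left out each library in turn. A further one, chosen after seeing the data, left out genes that were over 1 FPKM in 1 of the compared groups and in no other group, because the filter fixed their direction.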

Additional observations from a re-analysis of the deposited data

Results flagged for a closer look

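Between growth and differentiation medium, Mest and H19 each changed in opposite directions at the 2 oxygen levels. At 2% oxygen this was a change of medium in which the myotube markers stayed low. Every differentiation library of Mest was below every growth library at 21% oxygen and above every one at 2% oxygen, and the log2 change at 2% minus that at 21% oxygen was 5.57. For H19 the order was the reverse, higher at 21% and lower at 2% oxygen, and the corresponding value was −4.79. The difference was not tested for either gene, because it contains the growth medium oxygen contrast on which the set was selected.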

How the results depend on the processing

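Of 11 results (1 member in 1 tested contrast each, without the 2 contrasts in which the filter fixed the direction of Plagl1), 8 kept their direction and their side of the threshold under all 17 alternatives run. Plagl1 at 2% oxygen had 16, since a filter at 5 FPKM removed it. The exceptions were the following. Without normoxic growth replicate A, Peg3 passed for differentiation at 21% oxygen (−0.55, adjusted p = 0.0183, against 0.054 to 0.877 in the other alternatives). Without hypoxic differentiation replicate B, Cdkn1c passed at 2% oxygen (1.51, adjusted p = 0.000612, against 0.0595 to 0.235 elsewhere) and Plagl1 turned to −0.004 (adjusted p = 0.984; −0.004 to 0.191 over the 8 fits that left out 1 library). The replicate letters do not pair the libraries: correlations of A minus B differences between groups ran from −0.166 to 0.042. A replicate block changed no member's call (Mest −1.04, adjusted p = 0.000835, for hypoxia in differentiation medium) and gave 24, 25 and 19 calls among the other imprinted genes for hypoxia in differentiation medium and for differentiation at 21% and at 2% oxygen.

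In that order the main counts were 24, 25 and 21 among the 37 other imprinted genes and 8075, 8241 and 5073 among all genes. Leaving out genes over the filter in 1 compared group alone, an alternative chosen after seeing the data, gave 22, 23 and 20 and 7539, 7654 and 4928. Requiring a log2 change of at least 1 lowered them to 14, 13 and 4 and to 3420, 3542 and 925, by construction. For differentiation at 2% oxygen, fitting only the libraries compared gave 13 other imprinted genes and 2867 genes. Leaving out 1 library gave 10 to 24 and 2501 to 6529, with 12 and 2688 without hypoxic growth replicate A and 10 and 2501 without replicate B; the cause was not tested. Depth is unknown, so low levels carry no stated precision.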

Other observations

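Several imprinted genes outside the members were below the level required for testing. Of the 65 in the table, 28 did not reach it and 8 of those were at 0 in all libraries, Magel2 among them. Phlda2, a growth-restraining gene of the Cdkn1c domain, was listed at 0 in 6 libraries and at 0.244 and 0.642 FPKM in the hypoxic differentiation libraries. Kcnq1ot1, the long noncoding RNA that silences that domain on the paternal copy, stayed between 0.0276 and 0.130 FPKM in all 8 libraries, while Cdkn1c ranged from 2.42 to 105.5 FPKM. Igf2r, the receptor that clears the growth factor encoded by Igf2, measured 31.7 and 33.4 FPKM in normoxic differentiation medium and 6.92 and 5.97 FPKM in hypoxic differentiation medium. Airn, transcribed antisense to Igf2r, measured 8.12 and 8.86 FPKM there and 3.20 and 1.33 FPKM in hypoxia, and without stated strand use the reads of this pair cannot be told apart.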
